A study of Mus musculus with 4 samples.

Results

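The genes described here are 28 subunits of voltage-gated sodium, calcium and potassium channels. They were taken by gene symbol from the deposited expression table, which holds 24341 genes, and all 28 were found in it. Of these, 21 code for the pore-forming subunit (5 sodium, 6 calcium and 10 potassium channel genes) and 7 for auxiliary subunits (Scn3b of sodium channels and 6 genes of calcium channels). The list was drawn up when earlier results from the same table were known.

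The cells were CAD cells, a mouse catecholaminergic line derived from a brain tumour, which stops dividing and grows neurite-like processes when serum is removed. Every culture was held in serum-free medium for 5 days. For 24 h the cells received DMSO, the solvent, or 20 µM of ACSS2i, a quinoxaline urea that inhibits ACSS2, the enzyme that turns acetate into acetyl-CoA outside the mitochondria. Each group had 2 polyA RNA libraries of this single, otherwise unmodified line, so the values describe a tumour-derived line and not neurons of the brain, and p-values measure the spread between libraries that may be technical replicates.

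Voltage-gated channels open when the membrane depolarises. The pore-forming subunit carries the voltage sensor and the ion path: in sodium and calcium channels it is a single long protein of linked repeats, and in potassium channels a tetramer of shorter proteins. Sodium channels drive the upstroke of the action potential, calcium channels admit the calcium that releases transmitter and signals to the nucleus, and potassium channels repolarise the cell. Auxiliary subunits do not form the pore but set how much channel reaches the surface and how it gates.

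Values are FPKM, fragments scaled to transcript length and to the mapped fragments of the library, which allows levels of different genes to be compared per length. The lowest value in the table, 0.01 FPKM, is a floor. Read from the steps of the low values, the DMSO libraries held a nominal 11600000 and 3390000 reads and the ACSS2i libraries 7840000 and 9960000, so DMSO replicate 2 was the shallowest. The neuronal markers Tubb3 and Map2 were present in all 4 libraries, at 99.04 to 323 FPKM for Tubb3 and 13.1 to 20.3 FPKM for Map2. Of 10 catecholaminergic markers 8 passed the filter described below, among them Th, tyrosine hydroxylase, at 2.92 to 4.09 FPKM, while the noradrenaline transporter Slc6a2 was at the floor in all 4 libraries. Astrocyte, microglia and fibroblast markers, 18 genes in all, stayed at or below 0.479 FPKM, and the 6 oligodendrocyte markers summed to 5.11 and 5.09 FPKM under DMSO and 4.40 and 5.55 FPKM under ACSS2i.

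The 28 channel genes ranged from well expressed to silent. Genes whose 4 libraries averaged 1 FPKM or more were tested, and 12 of the 28 passed this filter: 9 of the 21 pore genes and 3 of the 7 auxiliary genes. Among the other 16, Cacna1h and Cacna1a lay just under the filter with means of 0.844 and 0.785 FPKM, and the remaining 14 never exceeded 0.221 FPKM. With the longest annotated coding transcript, the largest value in any library for these 14 genes corresponded to at most 18.2 nominal reads, so differences between groups were not detectable in them at this depth. Scn3a was just inside, with a mean of 1.16 FPKM, and passed through its DMSO values.

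**Figure D1:**
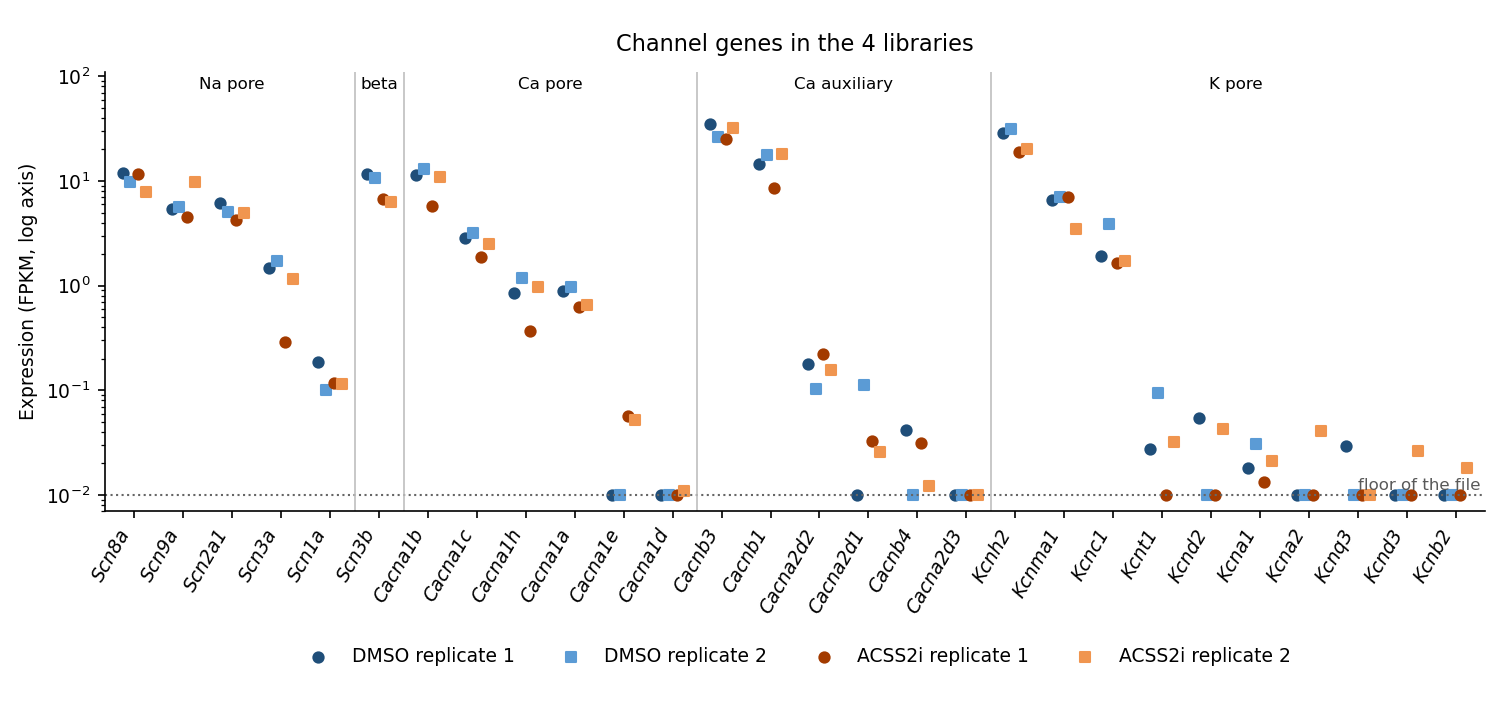
Expression of the 28 channel genes in FPKM (log axis) in each library, with genes ordered by mean within sodium pore, sodium beta, calcium pore, calcium auxiliary and potassium pore subunits. The 12 tested genes run from 0.289 FPKM for Scn3a in ACSS2i replicate 1, below the untested Cacna1h and Cacna1a in that library, to 34.9 FPKM for Cacnb3 in DMSO replicate 1, and 14 genes lie at or below 0.221 FPKM.

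In level, the calcium channel beta subunit Cacnb3 came first with a mean of 29.6 FPKM over the 4 libraries and the potassium channel Kcnh2 second with 24.8 FPKM. These overlapped each other across libraries, and Kcnh2 lay above Cacnb1, the third at 14.7 FPKM, in all 4. From Cacnb1 down through Scn8a (10.4 FPKM), Cacna1b (10.3 FPKM), Scn3b (8.81 FPKM), Scn9a (6.34 FPKM), Kcnma1 (6.03 FPKM) and Scn2a1 (5.10 FPKM), each gene overlapped the next. A gap followed, and Cacna1c (2.61 FPKM), Kcnc1 (2.3 FPKM) and Scn3a (1.16 FPKM) formed an overlapping group at the bottom.

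The start sites of these genes were looked up in a table of 32851 promoter windows from RefSeq (GRCm38.p6, the assembly also called mm10), which matched 20 of the 28 genes with 29 windows. Of these windows 25 overlap the RefSeq span of their own gene. Sequence is shown for the 3 windows that lie in no exon of GENCODE M21 and have at least 200 bases outside that span, and only those bases are printed. They set Cacna1b and Scn2a1, which were expressed, beside Kcnd2, which was nearly silent. The bases just after the start were found in a GENCODE M21 transcript for Cacna1b, but not for the Scn2a1 and Kcnd2 windows shown. Scn2a1 has another window inside its gene, chr2:65668436-65668685, with such bases in a transcript and 53.2% G and C. The printed bases are chr2:24763201-24763402 on the minus strand for Cacna1b, chr2:65620519-65620763 on the plus strand for Scn2a1 and chr6:21215096-21215345 on the plus strand for Kcnd2, each ending next to the RefSeq gene. Capitals mark the GC box GGGCGG or its reverse complement.
Cacna1b: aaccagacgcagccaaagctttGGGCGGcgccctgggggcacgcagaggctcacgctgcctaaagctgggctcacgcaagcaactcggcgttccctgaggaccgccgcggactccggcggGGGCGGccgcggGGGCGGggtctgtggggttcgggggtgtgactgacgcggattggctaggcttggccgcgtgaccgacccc
Scn2a1: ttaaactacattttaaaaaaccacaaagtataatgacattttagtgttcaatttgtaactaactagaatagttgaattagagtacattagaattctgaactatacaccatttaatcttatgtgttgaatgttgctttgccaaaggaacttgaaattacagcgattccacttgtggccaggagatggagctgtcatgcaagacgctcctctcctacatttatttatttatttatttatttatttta
Kcnd2: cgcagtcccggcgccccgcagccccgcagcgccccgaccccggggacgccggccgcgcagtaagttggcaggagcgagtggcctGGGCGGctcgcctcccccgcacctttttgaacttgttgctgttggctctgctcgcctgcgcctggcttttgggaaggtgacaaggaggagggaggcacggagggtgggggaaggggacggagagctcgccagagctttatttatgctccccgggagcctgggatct
The GC box was found 3 times in the bases printed for Cacna1b, 1 time for Kcnd2 and 0 times for Scn2a1. G and C made up 71.8% of the Cacna1b bases, 68.8% for Kcnd2 and 30.2% for Scn2a1, and the median of all windows was 52.4%. Searched on both strands in the 250 bases, GGGCGG was in 13 of the 29 channel windows, 44.8%, against 32.7% of all windows. The TATA box letters TATAAA, which share no overlap with the GC box, were in 2 of the 29, 6.9%, against 12.4% of all. TTCAGCACC, the left part of the RE1 element bound by the neuronal gene repressor REST, was in 0 of the 29 and in 0.301% of all windows. With a share so low, 0 of 29 was likely for any set of windows. The search took exact letters in 250 bases, so it cannot show whether these genes have RE1 sites.

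The comparison of the inhibitor with DMSO asks how the expression of these channels differed when ACSS2 was inhibited. Most of the 12 tested channel genes had lower values in the inhibitor libraries, and the potassium channel Kcnh2 and the sodium channel beta subunit Scn3b stood lowest relative to their spread. With limma on log2(FPKM + 1), 0 of the 12 passed a Benjamini-Hochberg adjusted p of 0.05 over all 11486 genes tested, of which 0.0261% passed. At an unadjusted p under 0.05, 2 of the 12 were lower, against 3.67% of all genes tested, and 0 were higher, against 3.29%. The log2 fold change was negative in 11 of the 12, against 47.8% of all genes tested. Both inhibitor libraries lay below both DMSO libraries in 7 of the 12, against 18.3% of all, and above them in 0, against 19.0%. Over all 28 genes without a filter these counts were 8 below and 1 above, against 11.4% and 11.8% of all genes. Scn3a, which passed the filter through its DMSO values, is counted among the 11 negative and the 7 below. With 2 libraries a group, the smallest p that an exact permutation test allows is 0.33. In bulk RNA, fewer cells of a type and less RNA per cell cannot be told apart.

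By ion, the median log2 fold change was -0.22 over the 5 tested sodium channel genes, -0.34 over the 4 calcium channel genes and -0.49 over the 3 potassium channel genes, and over all genes tested it was 0.020. The differences between ions were not tested, and their order depended on single libraries. Without ACSS2i replicate 2 the medians were -0.31 for sodium, -0.66 for calcium and -0.51 for potassium. Without DMSO replicate 2 they were -0.31 over 4 sodium genes, -0.28 for calcium and -0.34 for potassium. Pore and auxiliary genes lay close together, with medians of -0.37 over 9 and -0.34 over 3. The median of the 12 was -0.36, and against the mean of the DMSO libraries it was -0.50 for ACSS2i replicate 1 and -0.24 for replicate 2. Without ACSS2i replicate 1, Cacna1h also passed the filter, and the median was -0.20 over 13 members. The calcium median was then -0.03 over 5 genes. The auxiliary median was 0.09, so the sign of the auxiliary group rested on that library. Without ACSS2i replicate 2, 5 members were lower at an unadjusted p under 0.05, against 7.75% of all genes in that fit, and 0 were higher, against 5.61%. Without ACSS2i replicate 1, 2 were lower, against 6.24%, and 1, Scn9a, was higher, against 8.57%. Without DMSO replicate 1 or without DMSO replicate 2, 0 were lower, against 1.68% and 1.43%, and 0 were higher, against 1.65% and 1.87%. With small RNA genes left out, each library was also rescaled to the same summed FPKM, which the reported fit does not do. The median of all genes tested was then -0.065 and that of the members -0.44, and 58.2% of all genes were negative. Of the genes at an unadjusted p under 0.05, 66.5% were lower in that fit, against 52.7% in the reported fit. The part of each step was not tested.

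**Figure D2:**
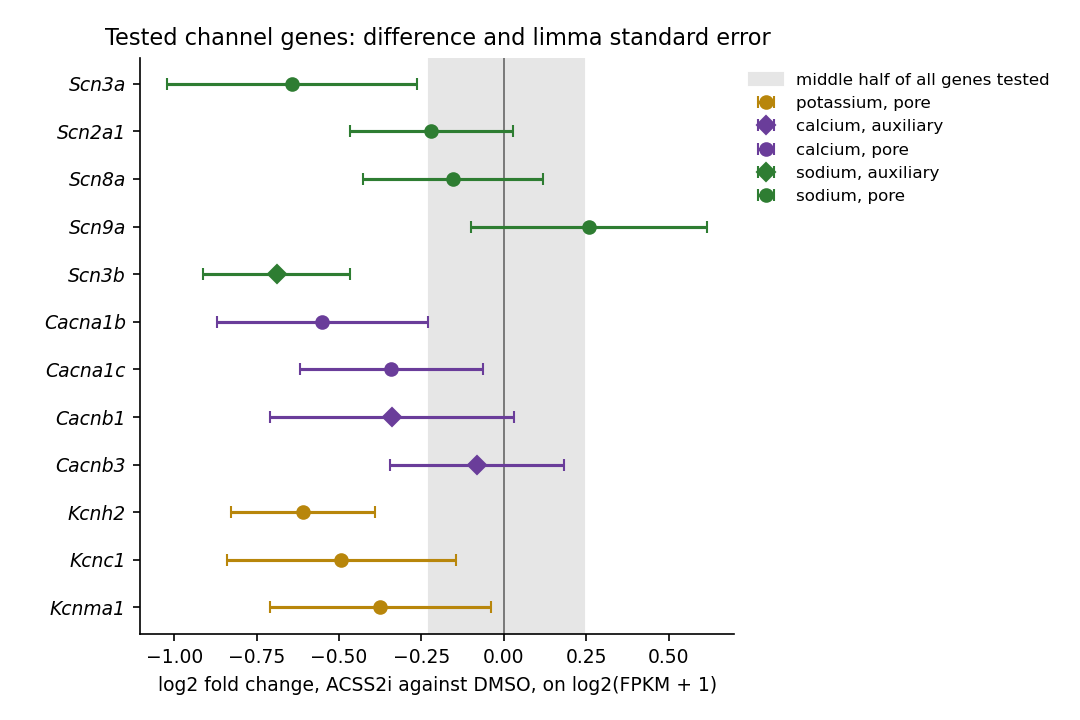
Log2 fold change of the 12 tested channel genes (ACSS2i against DMSO, on log2(FPKM + 1)) with limma's standard error as bars, with n = 2 libraries a group. Points are coloured by ion, circles are pore and diamonds auxiliary subunits, and the grey band spans the lower to the upper quartile of all genes tested, from -0.23 to 0.24. Scn3b, Scn3a and Kcnh2 lie farthest to the left, and Scn9a is the single gene to the right of 0.

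Among sodium channel pores, the summed level overlapped between the groups, and single subunits had values of both signs. Scn8a codes for Nav1.6, the main sodium channel of mature axon initial segments and nodes. It was at 11.96 and 9.88 FPKM under DMSO and at 11.8 and 7.91 FPKM under ACSS2i. The groups overlapped (log2 fold change -0.16 ± 0.27, SE, limma, adjusted p = 0.944).

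Scn2a1 (Scn2a in current annotation) codes for Nav1.2, which is prominent in unmyelinated and developing axons. It was at 6.10 and 5.03 FPKM under DMSO and at 4.28 and 4.98 FPKM under ACSS2i. The inhibitor values were lower without overlap, by a small gap between DMSO replicate 2 and ACSS2i replicate 2 (log2 fold change -0.22, 95% interval -0.83 to 0.39).

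Scn9a codes for Nav1.7, a channel of peripheral sensory and sympathetic neurons. It was at 5.39 and 5.59 FPKM under DMSO and at 4.57 and 9.83 FPKM under ACSS2i. The DMSO libraries lay between the inhibitor libraries, which differed from each other by more than the groups did (log2 fold change 0.26 ± 0.36, SE), and without ACSS2i replicate 2 the sign was negative, at -0.22. An exon of Scn9a overlaps the antisense gene Gm13629, which was at 0.309 FPKM or less, and whether counting used the strand is not given in the sources used here.

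Scn3a codes for Nav1.3, a channel of the embryonic brain that falls after birth. It was at 1.48 and 1.72 FPKM under DMSO and at 0.289 and 1.15 FPKM under ACSS2i. Both inhibitor libraries were lower, and replicate 1, with at most 21.7 nominal reads, was far lower than replicate 2 (log2 fold change -0.64 ± 0.38, SE, limma, adjusted p = 0.804). Scn1a, which codes for Nav1.1 of inhibitory interneurons, was near the bottom, at 0.186 and 0.101 FPKM under DMSO and 0.116 and 0.114 FPKM under ACSS2i.

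These 5 genes include a genomic cluster: Scn3a (65457118 to 65567591), Scn2a1 (65620764 to 65767447), Scn1a (66270781 to 66440837) and Scn9a (66480080 to 66635114) lie in that order on chromosome 2, followed by Scn7a, whereas Scn8a is on chromosome 15 (100869863 to 101045938). Neighbours in the cluster were expressed at very different levels, with Scn1a at a mean of 0.130 FPKM between Scn2a1 at 5.10 and Scn9a at 6.34 FPKM.

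Scn3b, on chromosome 9 (40269216 to 40291618), codes for the beta3 subunit, a single-span membrane protein that associates with the sodium channel pore and modulates its gating and surface level. It was at 11.6 and 10.6 FPKM under DMSO and at 6.79 and 6.24 FPKM under ACSS2i. The groups were clearly apart, with an inhibitor mean of 58.6% of the DMSO mean (log2 fold change -0.69 ± 0.22, SE, 95% interval -1.24 to -0.14, limma, adjusted p = 0.618). With Kcnh2 it was one of the 2 members at an unadjusted p under 0.05.

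Relative to the summed sodium pores, Scn3b was lower in both inhibitor libraries. The 5 pore genes summed to 25.1 and 22.3 FPKM under DMSO and 21.0 and 24.0 FPKM under ACSS2i, which overlapped. The ratio of Scn3b to that sum was 0.462 and 0.476 in DMSO and 0.323 and 0.260 in ACSS2i, without overlap. The difference in this ratio was not tested.

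**Figure D3:**
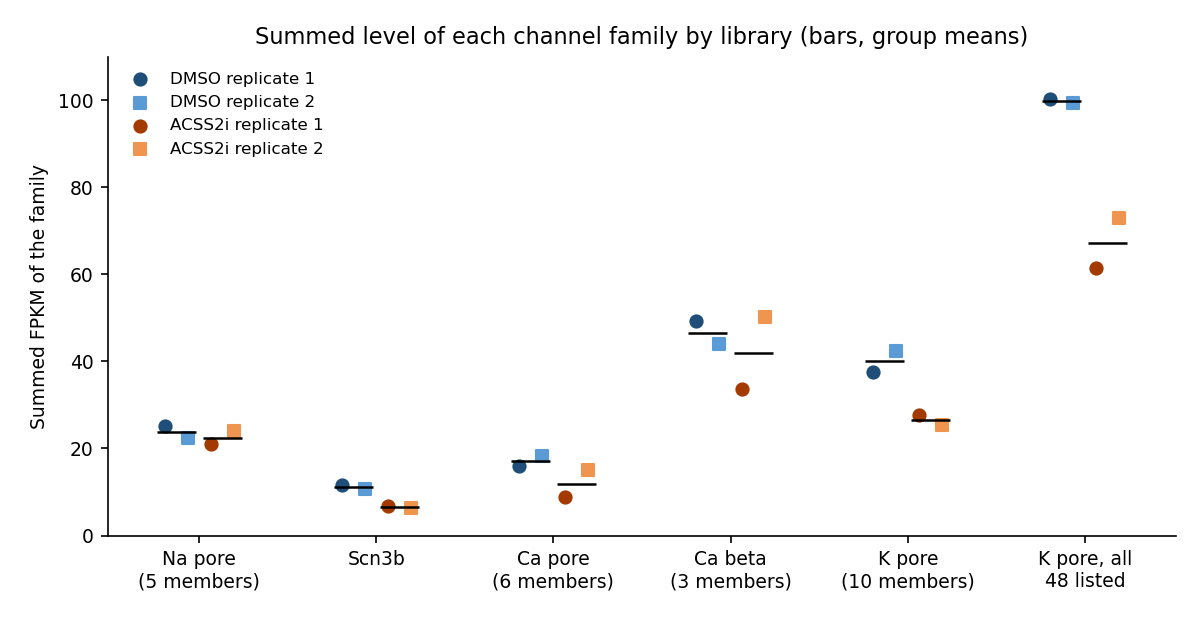
Summed FPKM of each channel family in each library (points) with group means (bars). Sodium pore and calcium beta sums overlap between groups, whereas Scn3b, calcium pore and potassium pore sums are lower in both inhibitor libraries, and for all 48 listed potassium pores they stood at 100.2 and 99.3 FPKM under DMSO and 61.5 and 72.9 FPKM under ACSS2i.

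Among calcium channel pores, the N-type gene Cacna1b led and the summed level was lower in both inhibitor libraries. The 6 genes summed to 16.03 and 18.4 FPKM under DMSO and 8.75 and 15.1 FPKM under ACSS2i. ACSS2i replicate 2 lay just under the lower DMSO library.

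Cacna1b codes for Cav2.2, the N-type channel that triggers transmitter release at many synapses. It lies on chromosome 2 (24603860 to 24763200). It was at 11.4 and 12.97 FPKM under DMSO and at 5.82 and 10.9 FPKM under ACSS2i. The values were lower in both inhibitor libraries, but the inhibitor libraries stood farther from each other than ACSS2i replicate 2 stood from DMSO (log2 fold change -0.55 ± 0.32, SE, limma, adjusted p = 0.804).

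Cacna1c codes for Cav1.2, the main L-type channel of brain and heart, which couples depolarisation to gene transcription. It was at 2.86 and 3.20 FPKM under DMSO and at 1.88 and 2.50 FPKM under ACSS2i. The groups did not overlap (log2 fold change -0.34 ± 0.28, SE).

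Cacna1a codes for Cav2.1, the P/Q-type channel of fast synapses, and was below the filter. It was at 0.890 and 0.969 FPKM under DMSO and at 0.620 and 0.660 FPKM under ACSS2i, lower in both inhibitor libraries. Cacna1h, a low-threshold T-type channel, was at 0.846 and 1.19 FPKM under DMSO and 0.366 and 0.969 FPKM under ACSS2i, with overlap.

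Cacna1d, the second L-type channel of neurons and endocrine cells, was at the floor in 3 libraries and at 0.0109 FPKM in ACSS2i replicate 2. Cacna1e, the R-type channel Cav2.3, was the single member with higher values in both inhibitor libraries. It was at the floor in both DMSO libraries and at 0.0564 and 0.0518 FPKM under ACSS2i, at most 6.60 and 7.70 nominal reads, and no fold is given.

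The auxiliary subunits of calcium channels split by class. Beta subunits bind the pore inside the cell and bring it to the surface, and alpha2delta subunits sit outside the membrane and promote trafficking and synaptic placement. Cacnb3 was at 34.9 and 26.2 FPKM under DMSO and at 25.2 and 32.2 FPKM under ACSS2i. The groups overlapped, with a log2 fold change of -0.08 and a 95% interval of -0.73 to 0.57.

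Cacnb1 was at 14.4 and 17.7 FPKM under DMSO and at 8.48 and 18.0 FPKM under ACSS2i. The lowest and the highest value were both in inhibitor libraries (log2 fold change -0.34, 95% interval -1.24 to 0.57). Cacnb4, a beta subunit of the cerebellum and thalamus, reached at most 0.0422 FPKM.

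All 3 alpha2delta genes were nearly silent in both groups. Cacna2d2 was at 0.179 and 0.102 FPKM under DMSO and 0.221 and 0.157 FPKM under ACSS2i, Cacna2d1 reached at most 0.113 FPKM, and Cacna2d3 was at the floor in all 4 libraries. Together they came to 0.199 and 0.226 FPKM under DMSO and 0.264 and 0.192 FPKM under ACSS2i, floor values included. The 3 beta genes summed to 49.3 and 43.9 FPKM under DMSO and 33.8 and 50.2 FPKM under ACSS2i. The ratio of summed beta to the 6 summed member pores was 3.08 and 2.39 in DMSO and 3.86 and 3.34 in ACSS2i. This pore sum leaves out Cacna1g and Cacna1i, which made up 9.6% and 18.7% of all listed calcium pores in DMSO. In ACSS2i they made up 8.1% and 15.7%.

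Summed potassium pores were lower in both inhibitor libraries. The 10 pore genes summed to 37.6 and 42.4 FPKM under DMSO and to 27.6 and 25.4 FPKM under ACSS2i, an inhibitor mean of 66.2% of the DMSO mean. Kcnh2, Kcnma1 and Kcnc1 carried nearly all of it.

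Kcnh2, on chromosome 5 (24319589 to 24351684, minus strand), codes for ERG1 (Kv11.1), a channel that closes slowly and holds down firing and, in the heart, ends the action potential. It was at 28.9 and 31.3 FPKM under DMSO and at 18.8 and 20.0 FPKM under ACSS2i. The 2 libraries of each group were close and the groups far apart (log2 fold change -0.61 ± 0.22, SE, 95% interval -1.15 to -0.07, limma, adjusted p = 0.662). Over all alternatives run the log2 fold change stayed between -0.70 and -0.53, with adjusted p from 0.342 to 1.00.

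Kcnma1 codes for the pore of the BK channel, which opens with both calcium and voltage. It was at 6.63 and 6.96 FPKM under DMSO and at 7.06 and 3.49 FPKM under ACSS2i. ACSS2i replicate 2 alone was low, and without it the log2 fold change was 0.048 instead of -0.37.

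Kcnc1 codes for Kv3.1, which lets neurons fire fast. It was at 1.92 and 3.90 FPKM under DMSO and at 1.65 and 1.72 FPKM under ACSS2i. The inhibitor libraries were lower, but the shallow DMSO replicate 2 stood far above DMSO replicate 1 (log2 fold change -0.49 ± 0.35, SE), and without it the value was -0.12.

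The other 7 potassium channel members were at or below 0.0950 FPKM in every library, at most 4.69 nominal reads. They were the Shaker channels Kcna1 and Kcna2 of axons, the delayed rectifier Kcnb2, the A-type channels Kcnd2 and Kcnd3, the M-current subunit Kcnq3 and the sodium-activated Kcnt1. Differences between groups were not detectable in them at this depth.

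Within each family the makeup was read as each gene's share of the summed FPKM. Kcnh2 made up 75.4% ± 2.07 of the potassium members in DMSO and 73.5% ± 7.47 in ACSS2i (SD, n = 2 libraries each). Cacna1b made up 71.0% ± 0.390 of the 6 calcium pore members in DMSO and 69.3% ± 4.06 in ACSS2i. With the other calcium pores counted in, Cacna1b made up 50.8% in DMSO and 52.6% in ACSS2i, and Cacna1i 18.7% and 15.7%. Cacnb3 made up 65.2% ± 7.78 of the beta members in DMSO and 69.4% ± 7.54 in ACSS2i. For these member shares the difference between groups was smaller than the ACSS2i SD, but for Cacna1b it was larger than the DMSO SD. In the sodium pores Scn8a led in 3 libraries, with 47.6% and 44.3% in DMSO and 56.0% in ACSS2i replicate 1, while in ACSS2i replicate 2 Scn9a led with 40.99% against 32.97% for Scn8a.

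**Figure D4:**
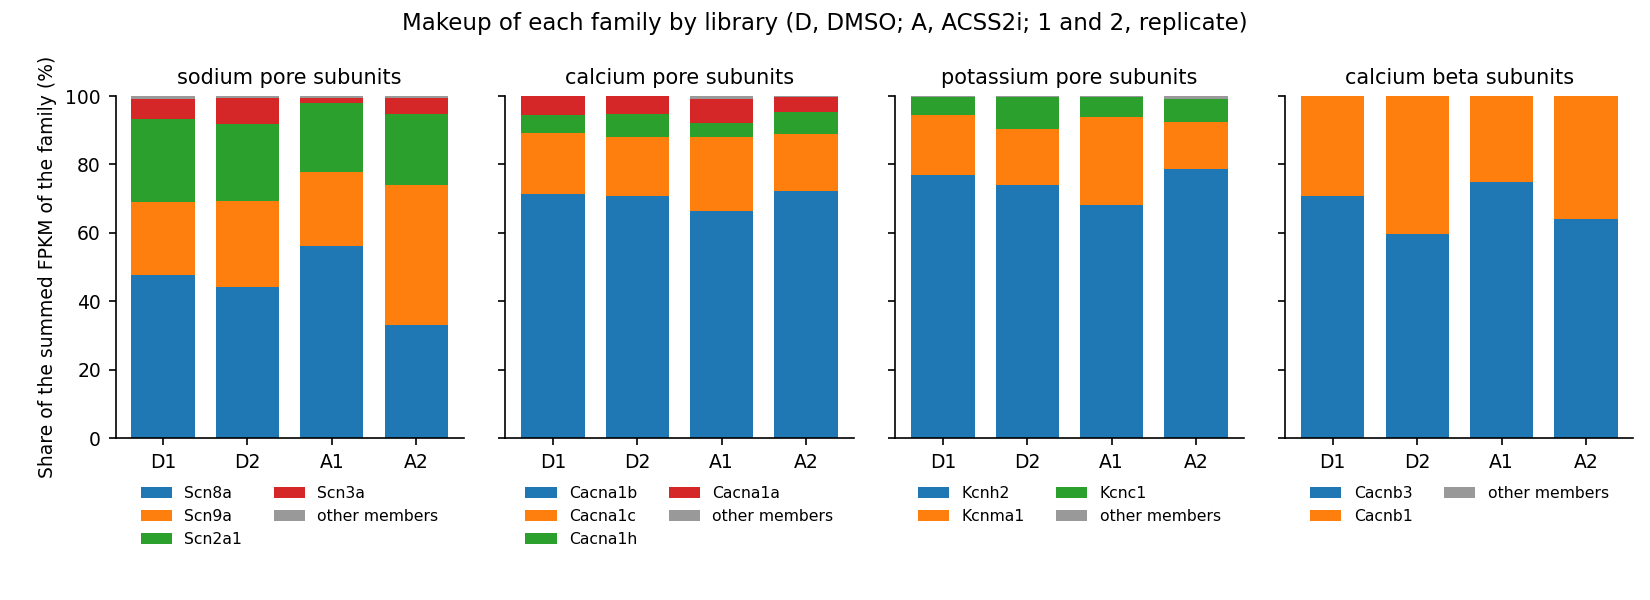
Share of each gene in the summed FPKM of the members of its family, in percent, for each library (D, DMSO; A, ACSS2i; 1 and 2, replicate number). Among these members, Kcnh2 and Cacna1b lead their families in all 4 libraries, at 66.5% or more. The sodium pores differ most between the inhibitor libraries, where Scn8a is at 56.0% and 32.97%.

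Other channel genes, from lists drawn up alongside the members, gave a wider view. In the lists of other sodium, calcium and potassium channel subunits and of the HCN pacemaker channels, 83 genes in all, 25 passed the filter. With limma 0 of the 25 passed an adjusted p of 0.05 and 3 an unadjusted p under 0.05, all lower, against 0.0261% of all genes tested after adjustment and 3.67% lower before it. The log2 fold change was negative in 21 of the 25, against 47.8% of all genes tested. Both inhibitor libraries lay below both DMSO libraries in 12, against 18.3%, and above them in 1, against 19.0%. Kcnh3, described below, passed the filter through its DMSO values and is counted among the 21 and the 12.

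Of the 10 other potassium pores tested, 8 were negative, with a median of -0.50. Kcnn2, a calcium-activated SK channel of the afterhyperpolarisation, was at 8.06 and 7.54 FPKM under DMSO and 2.81 and 5.48 FPKM under ACSS2i (log2 fold change -0.82, limma, adjusted p = 0.703). The related SK channel Kcnn3 had a log2 fold change of -0.72 and the ether-a-go-go family channel Kcnh3 of -0.65 (1.13 and 1.85 FPKM under DMSO, 0.383 and 0.794 FPKM under ACSS2i). Kcnh3, which passed the filter through its DMSO values, is among the 8 negative.

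Together the 48 potassium pores summed to 100.2 and 99.3 FPKM under DMSO and to 61.5 and 72.9 FPKM under ACSS2i. Kcnh2 made up 28.9% and 31.6% of this larger sum in DMSO and 30.6% and 27.4% in ACSS2i. The 10 sodium pores of members and list together summed to 25.2 and 22.4 FPKM under DMSO and 21.2 and 24.1 FPKM under ACSS2i, again with overlap.

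Of 5 other calcium channel genes tested, 4 were negative, with a median of -0.57. Cacna1i, a T-type pore, was at 3.32 and 5.90 FPKM under DMSO and 2.13 and 2.55 FPKM under ACSS2i, and Cacna1g, also T-type, overlapped (log2 fold change -0.57). Cacng4 was at 6.94 and 5.25 FPKM under DMSO and 2.87 and 3.69 FPKM under ACSS2i (log2 fold change -0.72, limma, adjusted p = 0.681), whereas Cacng3 was at 74.8 and 61.2 FPKM under DMSO and 79.3 and 101.8 FPKM under ACSS2i. Both belong to the gamma family, better known as partners of AMPA glutamate receptors.

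Potassium channel auxiliary genes had a median of -0.42 over 6 tested, with 5 negative. Kcnip3, a calcium-binding partner of A-type channels, was at 9.36 and 9.19 FPKM under DMSO and 4.86 and 7.49 FPKM under ACSS2i. Kcnab1, Kcnab3 and Dpp6 had log2 fold changes of -0.49, -0.54 and -0.35, and the groups overlapped for Kcnab1 and Kcnab3. Hcn4, a pacemaker channel that opens on hyperpolarisation, was at 8.52 and 10.4 FPKM under DMSO and 4.28 and 5.15 FPKM under ACSS2i, and had the lowest p in the channel lists (log2 fold change -0.87 ± 0.24, SE, limma, adjusted p = 0.558). Hcn2 and Hcn3 had -0.33 and -0.18, with overlap for Hcn3.

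Of 10 tested genes that anchor or modulate channels, 7 were negative, with a median of -0.25. Stac, an adaptor of L-type channels, was at 15.0 and 31.0 FPKM under DMSO and 8.96 and 12.4 FPKM under ACSS2i (log2 fold change -0.97, limma, adjusted p = 0.708). Sptbn4, a spectrin of the axon initial segment, had a log2 fold change of -0.47. Rem2, a small GTPase that restrains calcium channels, was at 3.59 and 10.8 FPKM under DMSO and 2.17 and 5.18 FPKM under ACSS2i. Its groups overlapped (log2 fold change -0.74 ± 0.54, SE). Rest, which represses many neuronal genes, was at 2.46 and 1.47 FPKM under DMSO and 3.39 and 2.12 FPKM under ACSS2i, with overlap (log2 fold change 0.34).

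**Figure D5:**
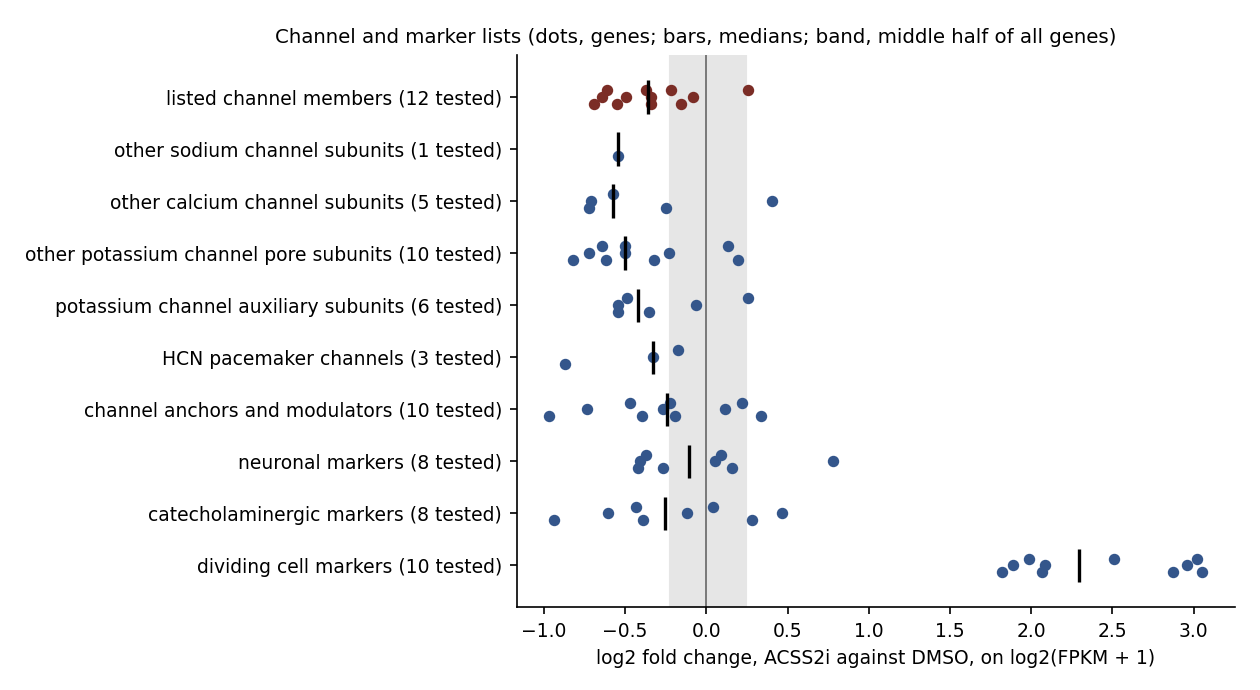
Log2 fold change (ACSS2i against DMSO, on log2(FPKM + 1)) of each tested gene (dots) with the list median (bars), for the channel members, the other channel lists and marker lists. The channel lists have medians from -0.57 to -0.25, the neuronal markers -0.11, the catecholaminergic markers -0.25 and the dividing cell markers 2.3. Of the 10 dividing cell markers, 7 passed the filter only through the inhibitor libraries. The grey band spans the lower to the upper quartile of all genes tested.

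Markers of dividing cells differed between the groups beside these channel values. All 10 markers of dividing cells were higher in both inhibitor libraries, as were 19.0% of all genes tested, and their summed level was 6.45 and 14.3 FPKM under DMSO and 76.8 and 166.6 FPKM under ACSS2i. Of these 10, 7 averaged under 1 FPKM in DMSO and passed the filter only through the inhibitor libraries, so no test is given for the list. Mki67, a marker of cells in cycle, was at 1.18 and 4.13 FPKM under DMSO and 22.2 and 24.9 FPKM under ACSS2i, and Top2a at 1.71 and 4.02 and at 19.6 and 44.4 FPKM. The summed dividing markers were higher in ACSS2i replicate 2, where the channel median was -0.24, than in ACSS2i replicate 1, where it was -0.50. The 8 neuronal markers summed to 951.5 and 999 FPKM under DMSO and to 654.5 and 1335 FPKM under ACSS2i, and the 10 catecholaminergic markers to 395 and 415 FPKM under DMSO and 226 and 505 FPKM under ACSS2i. Both sums were lowest in ACSS2i replicate 1, in which 9 of the 12 tested channel members had their lowest value. The other 3, Scn8a, Scn3b and Kcnma1, were lowest in ACSS2i replicate 2. The share of all genes tested that were lowest in each library was not counted, so these counts only describe the members. In ACSS2i replicate 1 the median of all genes tested, against the DMSO mean, was 0.009. The part of either set of markers in the channel values was not tested. Acss2 itself stood at 11.7 and 10.04 FPKM under DMSO and at 12.8 and 26.6 FPKM under ACSS2i. The inhibitor acts on the protein, so this RNA level is no check of the labels.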

How the data were processed

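RNA-seq of 4 libraries was analysed, 2 of DMSO-treated and 2 of ACSS2i-treated CAD cells, grouped by their titles. Per the submitters' processing notes, the tools were Cuffdiff, Cufflinks 2.2.1, STAR 2.3.0 and bcl2fastq 02.14.01.07, with build mm10. The deposited values were read as FPKM, as Cufflinks gives them. The table is called adjusted, and the adjustment, annotation and use of strand are not given in the sources used here. Sept7 carries a mark of failure in 1 library and was left out, which left 24340 genes.

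Tests used limma 3.58.1 (R 4.3.3; moderated, mean-variance trend, two-sided) on log2(FPKM + 1), for the 11486 genes averaging 1 FPKM or more, with Benjamini-Hochberg adjustment over all of them. This scale understates the change of low genes. The script was tested on simulated data. Relative depth came from the most common ratio between libraries at values of at most 0.5 FPKM. It was scaled with 200 genes that have a single transcript in GENCODE M21, and a depth wrong by a whole factor is possible. Nominal reads use the longest coding transcript. Gene coordinates are RefSeq spans (GRCm38.p6) and exons are from GENCODE M21.

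The members and lists were chosen with earlier results of these data known. Named were all members, up to 4 genes of smallest p in each channel list, and Mki67, Top2a, Tubb3, Map2, Th, Rest and Acss2. Slc6a2, Scn7a and Gm13629 were named after their values were seen. Some genes that the rule would name are not reported here. The alternatives were other pseudocounts, filters and scalings, a replicate block, small RNA genes left out, and each library left out. Where small RNA genes were left out, the libraries were also rescaled to the same summed FPKM.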

Additional observations from a re-analysis of the deposited data

How the results depend on the processing

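The count of all genes called by limma, 3 in the reported analysis (Mir7063, Snora16a and Snora64, named after their values were seen), was 6 at pseudocount 0.1, and 0 at pseudocount 5, without a filter or with small RNA genes left out. With 1 library left out it ran from 17 to 38, the lone library of a group being taken to vary like the other group. Of the channel members, 0 were called under any alternative run. Their median log2 fold change, -0.36 as reported, was -0.45 at pseudocount 0.1, -0.22 at pseudocount 5, -0.44 with small RNA genes left out and -0.049 with no filter, where the silent members enter. With 1 library left out it ran from -0.50 to -0.20, the latter without ACSS2i replicate 1 and over 13 members. The labels number the libraries of both groups alike without saying that a number pairs them, and the deviations of same-numbered libraries had a correlation of -0.017 across genes. The replicate block gave 8 genes called and a member median of -0.36, with Scn3b and no longer Kcnh2 at an unadjusted p under 0.05. Of 140 values of single members under the alternatives, 134 kept their sign and 6 reversed, all 6 with 1 library left out. Over those settings Cacnb1 ran from -0.84 to 0.16, Cacnb3 from -0.28 to 0.12, Kcnma1 from -0.80 to 0.048, Scn8a from -0.42 to 0.10 and Scn9a from -0.22 to 0.74. The difference in the share of Cacna1b, ACSS2i minus DMSO, was -1.63 percentage points as reported and 1.80 when the other calcium pores were counted in. The cause of these changes was not tested. Depth limits the 14 members under 0.5 FPKM, and with 2 libraries a group differences of the size of the standard errors were not detectable.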
